A study of Mus musculus with 8 samples.

Results

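Regulatory T (Treg) cells, which express Foxp3 and hold back immune responses, read cytokines through surface receptors, and 10 genes for such receptor chains are described here. They are Il6ra, Il6st, Il7r, Il4ra, Il21r, Il12rb1, Il12rb2, Il18r1, Il23r and Il27ra, taken by symbol from a deposited expression table of 22432 genes. All 10 were among the 13797 genes whose mean un-logged value reached 1 and which were therefore tested. In 6 of the genes both libraries of cells without Nfkb2 alone lay above or below all the other libraries, against 16.3% of all genes tested, and in 4 they did not. The 10 genes were chosen with earlier results of these data known, so comparisons of them with all genes are descriptions only.

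RNA was sequenced from mouse Treg cells of 4 genotypes, with 2 libraries each and 30 M reads per sample by design. Every genotype, the controls included, carried a Cre recombinase with a YFP tag expressed from Foxp3 on the C57Bl/6 background. WT cells carried that Cre alone. RelB-KO cells also carried the RelB F/F allele, Nfkb2-KO cells the nfkb2 F/F allele, and DKO cells both alleles. The deletions were thus driven by a Cre expressed from Foxp3, and whether they were limited to cells that express Foxp3 was not tested. YFP+ cells were sorted from a pool of spleen and lymph nodes. They were then stimulated for 16 h with anti-CD3 bound to the plate (5 µg/ml), anti-CD28 (1 µg/ml), agonist anti-OX40 (2 µg/ml) and IL-2 (10 ng/ml). The ages of the mice are not given in the sources used here, nor is it said whether the 2 libraries of a genotype came from separate animals. The p-values therefore measure only the spread between these libraries, which may be technical.

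Most of the 10 chains belong to the type I cytokine receptor family, whose members pair up on the membrane and signal through JAK kinases to STAT transcription factors. Il6ra encodes the ligand-binding chain for IL-6 and Il6st encodes gp130, the shared signalling chain that also serves other cytokines of the IL-6 family. In CD4 T cells IL-6, IL-21 and IL-23 are known for promoting the Th17 programme, IL-12 and IL-18 for interferon gamma production, IL-4 for the Th2 programme, and IL-7 for survival. IL-27 is known for restraining inflammation as well as for inducing T-bet. RelB and the Nfkb2 product form the alternative NF-kB dimer, and the unprocessed Nfkb2 product, p100, also holds RelB in the cytoplasm.

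The sequences just before the start sites of the 3 genes called most often in what follows are shown first, because Il6ra and Il6st moved together and Il23r moved the other way. They come from RefSeq on GRCm38.p6, run 5′ to 3′ on the gene's own strand and cover the 250 bases before the annotated start. Capitals mark matches to GGGNNNNNCC on either strand, a loose form of the kappaB site bound by NF-kB dimers. The windows are chr3:89913197-89913446 (minus strand) for Il6ra, chr13:112463820-112464069 (plus strand) for Il6st and chr6:67491856-67492105 (minus strand) for Il23r.
Il6ra: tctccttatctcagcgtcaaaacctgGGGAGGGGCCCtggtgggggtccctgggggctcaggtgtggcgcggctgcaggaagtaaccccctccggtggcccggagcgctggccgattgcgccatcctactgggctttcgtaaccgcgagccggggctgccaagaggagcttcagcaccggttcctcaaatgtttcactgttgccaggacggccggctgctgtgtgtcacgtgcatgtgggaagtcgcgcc
Il6st: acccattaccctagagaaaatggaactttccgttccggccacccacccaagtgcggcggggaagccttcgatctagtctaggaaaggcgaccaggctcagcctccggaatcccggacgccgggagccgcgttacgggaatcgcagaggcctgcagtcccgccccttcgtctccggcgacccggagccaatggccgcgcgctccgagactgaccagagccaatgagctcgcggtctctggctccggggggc
Il23r: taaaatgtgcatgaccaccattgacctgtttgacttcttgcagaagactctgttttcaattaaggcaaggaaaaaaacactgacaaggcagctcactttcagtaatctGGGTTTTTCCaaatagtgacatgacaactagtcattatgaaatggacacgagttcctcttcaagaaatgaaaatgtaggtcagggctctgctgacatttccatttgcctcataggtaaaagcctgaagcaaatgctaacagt

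The Il6ra window held 2 overlapping matches to the loose pattern, the Il23r window held 1, and the Il6st window held none. Promoter windows were found for 8 of the 10 genes, and those of Il12rb1 and Il27ra were not in the table. Among those 8, Il21r and the third annotated start of Il18r1 also held a match, against 45.8% of all 32851 promoter windows of that length. The full 10-base kappaB consensus was in none of the windows of these genes and in 7.25% of all windows. The STAT-type motif TTCNNNGAA, read on either strand, was in the windows of Il7r, Il12rb2 and the third start of Il18r1, and in 7.02% of all windows. A match describes the letters in the window only.

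Values below are deposited log2 expression values, on which a difference of 1 is a 2-fold change. They are given in the order replicate 1, replicate 2, and a difference is given ± the standard error of a limma model fitted to all 8 libraries. Genes with an adjusted p (Benjamini-Hochberg, all 13797 genes) below 0.05 are described as called. Because same-numbered libraries of different genotypes deviated together, a second limma fit with the replicate number as a block is quoted as "with the block" wherever it changes a call. Low values in this table vary little between libraries, so differences of weakly expressed genes may be understated. In a sorted population a lower value can mean fewer cells with the transcript or less of it per cell, and these cannot be told apart.

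The deletions were visible in the expression values. Relb had a mean of 6.44 in RelB-KO and 6.91 in DKO, against 10.58 in WT and 10.84 in Nfkb2-KO. The Nfkb2 means were 8.77 in Nfkb2-KO and 9.57 in DKO, against 12.71 in WT and 12.49 in RelB-KO. Foxp3 stayed between 13.95 and 14.28 throughout. Limma called 0 of 7 Treg identity genes in any comparison, where at most 0.797% of all genes were called, with 1 at an unadjusted p under 0.05 between DKO and WT. Summed, these 7 genes reached a log2 value of 17.59 to 17.61 in DKO, against 17.34 to 17.50 in the other genotypes. WT replicate 1 stood apart in sex-linked transcripts: its Xist value was 8.17 (14.6 to 15.1 elsewhere) and its Ddx3y value 11.60 (4.25 to 4.35 elsewhere). Genes called between Nfkb2-KO and WT, and those called there with the block, are therefore also given without it. The log2 of the summed values of markers of other cells ran from 7.84 to 8.19 for B cells and from 9.14 to 9.76 for CD8 T and NK cells. The same sum ran from 10.24 to 10.70 for myeloid and dendritic cells, with both Nfkb2-KO libraries above both WT libraries in the B cell and myeloid sums. The B cell sum was higher still in DKO, at 8.17 to 8.19, against 8.06 to 8.14 in Nfkb2-KO, and it reached 8.14 in RelB-KO. Pax5 was listed at 0, and Ms4a1, Itgax and Ncr1 were below 1 in the WT mean.

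In Nfkb2-KO the largest difference from WT among the 10 genes was in Il6ra, the IL-6-binding chain. Il6ra (chromosome 3, 89864059 to 89913196, minus strand, mm10) stood at 10.51 and 10.22 in WT, 10.40 and 10.43 in RelB-KO, 9.08 and 9.17 in Nfkb2-KO, and 10.27 and 10.17 in DKO. Both Nfkb2-KO libraries lay more than 1 log2 unit below every other library, and the other 6 lay between 10.17 and 10.51. Il6ra fell by 1.24 ± 0.11 from WT to Nfkb2-KO, a level 2.37-fold lower (limma adjusted p = 0.0214, with the block 0.000861). It was the only 1 of the 10 receptor genes called in this comparison, where 0.341% of all genes tested were called. With the block 5 were called (Il6ra and Il6st lower, Il7r, Il21r and Il23r higher), against 2.91% of all genes, and with the block and without WT replicate 1 only Il6ra was, against 1.28%. Over all 17 alternative settings the Il6ra difference ran from -1.39 to -1.09 and its adjusted p from 0.000861 to 0.167, with a call in 9 of them. Without the block the call ended when any 1 library other than WT replicate 2 was left out, with an adjusted p of 0.0819 without WT replicate 1 and of 0.0574 to 0.149 without another. With the block and without WT replicate 1 it was -1.09 with an adjusted p of 0.00315.

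Il6ra was also lower in Nfkb2-KO than in RelB-KO, by -1.29 ± 0.11 (adjusted p = 0.0109). In DKO it was higher than in Nfkb2-KO by 1.09 ± 0.11, a 2.13-fold higher level (adjusted p = 0.0158). These 2 comparisons share the Nfkb2-KO libraries with each other and with the comparison to WT, so their values are not independent of it. Leaving out any 1 of the 4 libraries compared ended each call without the block, with adjusted p from 0.0556 to 0.0885 against RelB-KO and from 0.0770 to 0.124 for DKO. DKO and WT differed by -0.15 ± 0.11 (adjusted p = 0.883), with a 95% confidence interval from -0.41 to 0.11. The DKO level was thus near the WT level, while the Nfkb2 transcript itself was lower than in WT in both DKO and Nfkb2-KO. Nfkb2 was higher in DKO than in Nfkb2-KO by 0.80 ± 0.20, a 1.75-fold higher level (adjusted p = 0.184, with the block 0.0379), so the 2 genotypes did not have equal Nfkb2 values.

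Il6st (chromosome 13, 112464070 to 112510086, plus strand), the signalling partner of Il6ra, was likewise lowest in Nfkb2-KO, with smaller differences, and was highest in DKO. Its values were 12.09 and 12.00 in WT, 12.13 and 12.18 in RelB-KO, 11.55 and 11.54 in Nfkb2-KO, and 12.23 and 12.13 in DKO. The 2 Nfkb2-KO libraries were nearly equal and lay below all the others. The difference from WT was -0.50 ± 0.08, which was not called without the block (adjusted p = 0.0798) and was called with it (0.00914), though not with the block and without WT replicate 1 (0.0601). From Nfkb2-KO to DKO it rose by 0.63 ± 0.08 (adjusted p = 0.0274), and it was lower in Nfkb2-KO than in RelB-KO by -0.61 ± 0.08 (adjusted p = 0.0269). Without the block both of these calls ended when any 1 of the 8 libraries was left out, with adjusted p from 0.0624 to 0.182 and from 0.0525 to 0.171. Of the proteases that shed the IL-6 receptor from the membrane, Adam10 and Adam17, limma called 0 of 2 between Nfkb2-KO and WT (0 at an unadjusted p under 0.05), with differences of -0.07 and -0.13.

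**Figure D1:**
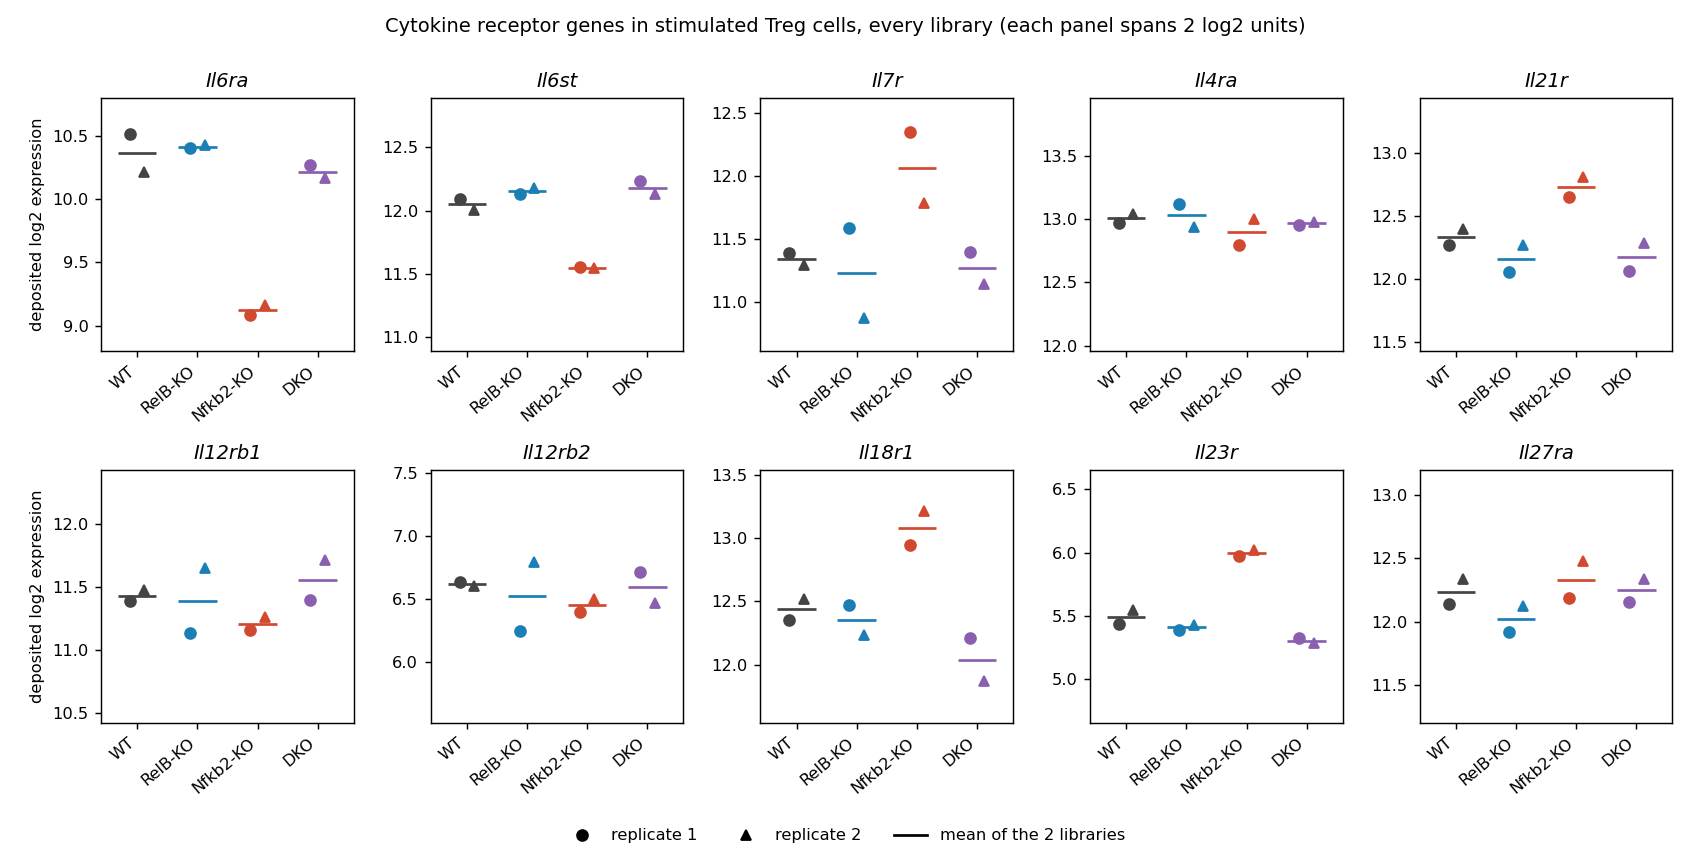
Deposited log2 expression (vertical axis) of the 10 receptor genes in each library of the 4 genotypes, with circles for replicate 1, triangles for replicate 2 and a line at the mean of the 2 libraries. Each panel spans 2 log2 units; both Nfkb2-KO libraries lie below the other 6 for Il6ra and Il6st and above them for Il7r, Il21r, Il18r1 and Il23r.

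Il23r encodes the IL-23-specific chain that pairs with Il12rb1, and it moved opposite to the IL-6 receptor. Il23r (chromosome 6, 67422932 to 67491855, minus strand) was weakly expressed, at 5.43 and 5.54 in WT, 5.39 and 5.43 in RelB-KO, 5.97 and 6.02 in Nfkb2-KO, and 5.32 and 5.28 in DKO. Both Nfkb2-KO libraries lay above all the others, and both DKO libraries lay below all the others. The Nfkb2-KO level exceeded WT by 0.51 ± 0.07, with an adjusted p of 0.0584 without the block, 0.00905 with it, and 0.0603 with the block and without WT replicate 1. It exceeded RelB-KO by 0.59 ± 0.07 (adjusted p = 0.0227), and in DKO it was lower than in Nfkb2-KO by -0.69 ± 0.07 (adjusted p = 0.0158). Without the block the call against RelB-KO ended when any 1 of the 8 libraries was left out (adjusted p from 0.0537 to 0.148). The call for DKO ended without any 1 of the 4 libraries compared (0.0874 to 0.132).

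The 2 chains of the IL-12 receptor did not move with Il23r, although Il12rb1 is shared between both receptors and Il12rb2 is its genomic neighbour. Il12rb1 (chromosome 8, 70808449 to 70821424, plus strand) was at 11.39 and 11.47 in WT, 11.14 and 11.65 in RelB-KO, 11.16 and 11.26 in Nfkb2-KO and 11.40 and 11.72 in DKO. The RelB-KO libraries spanned the values of every WT and Nfkb2-KO library, and the largest of the 6 differences between genotypes was 0.35 ± 0.18 from Nfkb2-KO to DKO (adjusted p = 0.650). Il12rb2 (chromosome 6, 67291318 to 67376188, minus strand), the chain specific to IL-12, was at 6.63 and 6.61 in WT, 6.25 and 6.79 in RelB-KO, 6.40 and 6.50 in Nfkb2-KO, and 6.72 and 6.47 in DKO. The Nfkb2-KO difference from WT was -0.17 ± 0.18 with a 95% confidence interval from -0.60 to 0.27, so a fall as large as that of Il6st is inside the interval. Il12rb2 overlaps Serbp1 on the opposite strand, an abundant gene with a mean of 14.05. Because the sources used here do not say whether counting used strand, the Il12rb2 values are uncertain.

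Il18r1 (chromosome 1, 40465552 to 40500854, plus strand), the ligand-binding chain of the IL-18 receptor, belongs to the IL-1 receptor family rather than the type I family. It stood at 12.35 and 12.52 in WT, 12.48 and 12.23 in RelB-KO, 12.94 and 13.21 in Nfkb2-KO, and 12.21 and 11.87 in DKO. Both Nfkb2-KO libraries were the highest and both DKO libraries the lowest. The step from Nfkb2-KO to DKO was -1.04 ± 0.16, with an adjusted p of 0.0532 without the block and 0.00483 with it. Nfkb2-KO exceeded WT by 0.64 ± 0.16 (adjusted p = 0.244, with the block 0.0511, and 0.177 with the block and without WT replicate 1) and RelB-KO by 0.72 ± 0.16 (0.148, with the block 0.0256). Its partner chain Il18rap lies 14508 bases away on the same strand, and its 2 values were 9.96 and 9.82 in WT, 10.64 and 10.36 in Nfkb2-KO, and 9.80 and 9.26 in DKO. Il18rap differed between Nfkb2-KO and WT by 0.61 ± 0.29 (adjusted p = 0.552, with the block 0.0608) and between DKO and Nfkb2-KO by -0.97 ± 0.29 (0.282, with the block 0.00633). Il1rl1, the IL-33 receptor, ends 137 bases before Il18r1 on the same strand and was not called, at 11.16 and 12.38 in WT, 12.12 and 12.44 in Nfkb2-KO, and 12.99 and 13.65 in DKO.

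Il7r and Il21r encode chains that signal together with the common gamma chain Il2rg, and both were highest in Nfkb2-KO. Il7r (chromosome 15, 9505788 to 9530176, minus strand), the IL-7 receptor alpha chain, was at 11.39 and 11.29 in WT, 11.58 and 10.88 in RelB-KO, 12.35 and 11.78 in Nfkb2-KO, and 11.40 and 11.15 in DKO. Replicate 1 was above replicate 2 in every genotype, and within each number Nfkb2-KO was the highest. The difference from WT was 0.72 ± 0.27 (adjusted p = 0.414, with the block 0.0279, and 0.109 with the block and without WT replicate 1). From Nfkb2-KO to DKO it was -0.79 ± 0.27 (adjusted p = 0.367, with the block 0.0116).

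Il21r (chromosome 7, 125603429 to 125633570, plus strand), which binds IL-21, was at 12.27 and 12.39 in WT, 12.05 and 12.27 in RelB-KO, 12.65 and 12.81 in Nfkb2-KO, and 12.06 and 12.29 in DKO. The Nfkb2-KO libraries were the highest, and RelB-KO and DKO were nearly equal. The difference from WT was 0.40 ± 0.12 (adjusted p = 0.336, with the block 0.0230, and 0.0613 with the block and without WT replicate 1). From Nfkb2-KO to DKO it was -0.56 ± 0.12 (adjusted p = 0.134, with the block 0.00309).

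Il4ra (chromosome 7, 125552120 to 125579474, plus strand), which binds IL-4 and also pairs with Il2rg, lies 23955 bases from Il21r and was level across genotypes. Its values were 12.97 and 13.04 in WT, 13.12 and 12.94 in RelB-KO, 12.79 and 13.002 in Nfkb2-KO, and 12.95 and 12.98 in DKO, a range of 0.32 over the 8 libraries. The groups overlapped in all comparisons with Nfkb2-KO, and its difference from WT was -0.11 ± 0.11 with a 95% confidence interval from -0.36 to 0.15. An antisense transcript is annotated within Il4ra, and another within Il6ra, and without strand their reads cannot be told apart from the gene's own.

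Il27ra (chromosome 8, 84030294 to 84042589, minus strand), the IL-27-specific chain that pairs with gp130, was at 12.14 and 12.33 in WT, 11.92 and 12.12 in RelB-KO, 12.18 and 12.48 in Nfkb2-KO, and 12.16 and 12.34 in DKO. WT, Nfkb2-KO and DKO overlapped. Both RelB-KO libraries lay below all the others, and the Nfkb2-KO difference from RelB-KO of 0.31 ± 0.14 was called with the block only (adjusted p = 0.457, with the block 0.0417). Il27ra overlaps Palm3 on the opposite strand, which had a mean of 6.67.

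Scaled to exonic length, the mean level over the 8 libraries was highest for Il21r, at 10.62 log2 units per kb, followed by Il27ra at 10.40, Il4ra at 10.39 and Il18r1 at 10.21. Il12rb1 and Il7r came next at 9.36 and 9.26, then Il6st at 8.51 and Il6ra at 6.92. Il12rb2 at 4.62 and Il23r at 4.23 were the lowest. The order differed between genotypes: per kb, Il18r1 at 10.81 in Nfkb2-KO was above Il27ra at 10.53 and Il4ra at 10.31, and Il7r at 9.84 was above Il12rb1 at 9.17. Il6ra was below its signalling partner Il6st per kb in every genotype. This scaling assumes that the deposited values are not already per length, although they are headed log2 RPKM, so the order is uncertain.

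Against WT, the receptor genes differed from each other in direction. In Nfkb2-KO the estimate was positive for 5 of the 10 and negative for 5. An unadjusted p under 0.05 was reached by 6 of the 10 and by 10.7% of all genes tested. The median size of the difference, whatever its sign, was 0.45 over the 10 genes and 0.078 over all genes tested. Because the 10 genes were chosen with earlier results of these data known, values and shares above those of all genes may be in part built in. All genes tested include weakly expressed genes, whose values vary little, and were not matched to the 10 in level. WT and Nfkb2-KO libraries did not overlap in 8 of the 10, against 42.5% of all genes. Both Nfkb2-KO libraries lay outside all 6 others in 6 of the 10, against 16.3% of all genes. The genes were 2 lower, Il6ra and Il6st, and 4 higher, Il7r, Il21r, Il18r1 and Il23r. The same held for both DKO libraries in 2 genes, Il18r1 and Il23r (6.33% of all genes), for both RelB-KO libraries in 1, Il27ra (4.09%), and for both WT libraries in 0 (5.06%). The authors' deposited table puts these same 6 genes at an adjusted p under 0.05 between Nfkb2-KO and WT, against 6.22% of the genes for which it gives one. In the authors' deposited table Il6ra has a log2 fold change of -1.36 (adjusted p = 1.24e-21), Il6st of -0.55 and Il23r of 0.79.

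**Figure D2:**
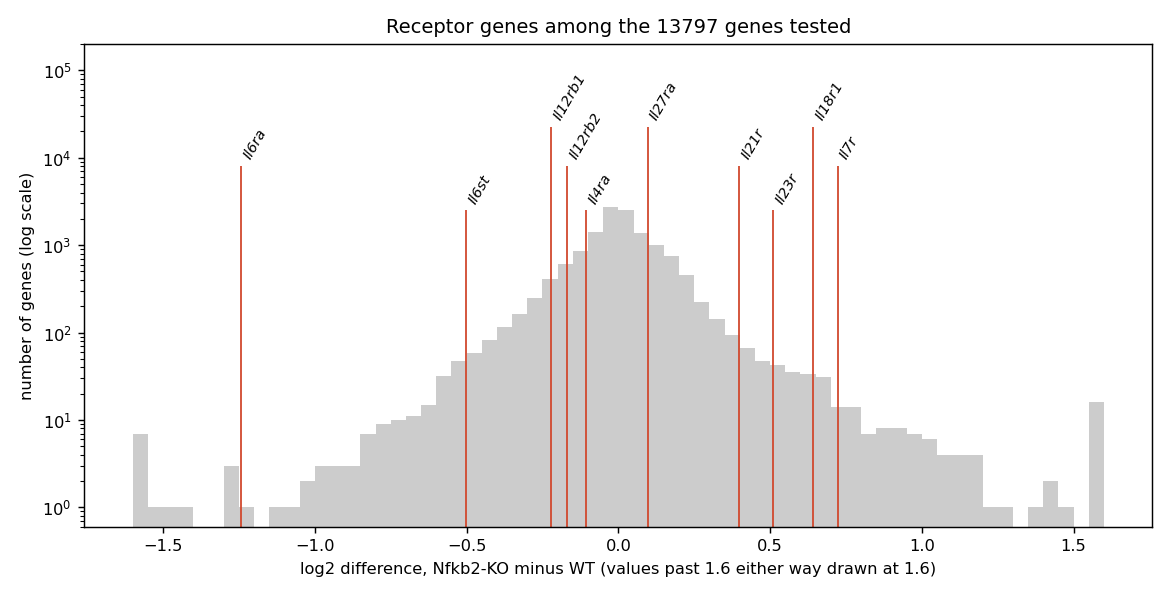
Number of genes (vertical, log scale) by log2 difference between Nfkb2-KO and WT (horizontal) for all 13797 genes tested, with a vertical line at each receptor gene whose height has no meaning. Il6ra at -1.24 lies far in the lower tail, and Il7r at 0.72 is the highest of the 10.

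Between Nfkb2-KO and DKO the same genes stood apart with the signs exchanged, which is in part built in because both comparisons use the Nfkb2-KO libraries. Il6ra and Il6st were called higher and Il23r lower in DKO, 3 of the 10 against 0.768% of all genes tested. With the block Il7r, Il21r and Il18r1 were also called lower, 6 of the 10 against 5.02%. With the block and without WT replicate 1 the count was also 6, against 5.83%. In Nfkb2-KO against RelB-KO, 3 of the 10 were called (Il6ra and Il6st lower, Il23r higher), a share of 0.797% over all genes. With the block 7 were called, against 4.46%, as Il7r, Il21r, Il18r1 and Il27ra were also higher, and without WT replicate 1 the count with the block was 7 again, against 5.65%. Libraries did not overlap in 7 of the 10 in each of these comparisons, against 35.1% of all genes for DKO and 42% for RelB-KO. The median size of the difference between DKO and Nfkb2-KO was 0.59 over the 10 genes and 0.063 over all genes tested. Il4ra, Il12rb1 and Il12rb2 were not called in either comparison, with or without the block.

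**Figure D3:**
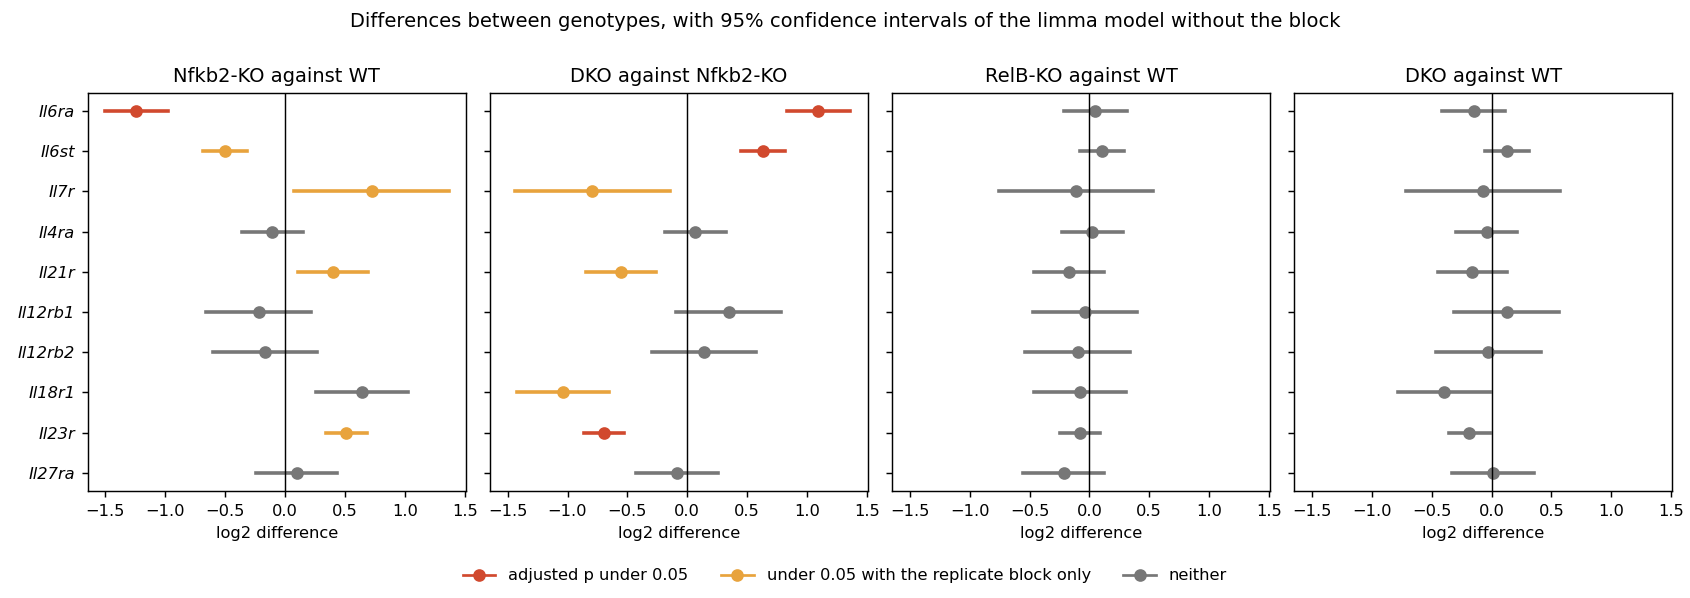
Log2 differences (horizontal) of the 10 receptor genes in 4 comparisons, as points with 95% confidence intervals of the limma model without the block. Red marks an adjusted p under 0.05, orange one under 0.05 with the replicate block only, and grey neither; all points against WT in RelB-KO and DKO are grey.

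Removal of RelB alone left all 10 receptor genes uncalled. By limma 0 of 10 reached an unadjusted p under 0.05, against 1.24% of all genes tested. With the block 2 of 10 reached that level, against 3.13%. Differences from WT ran from -0.22 ± 0.14 for Il27ra to 0.11 ± 0.08 for Il6st, and 0.00725% of all genes were called (0.0145% with the block). Without the block the only gene called was Relb itself, so the absence of a call does not show that a receptor gene was unchanged. For Il6ra the difference was 0.05 ± 0.11, with a 95% confidence interval from -0.21 to 0.31, so a fall of the size seen in Nfkb2-KO is outside it. RelB-KO and WT libraries did not overlap in 4 of the 10, against 20.6% of all genes.

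DKO cells also had 0 of 10 called against WT, where 0.0145% of all genes were called (0.0652% with the block). Without the block the only genes called there were Relb and Nfkb2 themselves. Of the 10 receptor genes, 2 had an unadjusted p under 0.05, against 5.18% of all genes tested (with the block 3, against 12.9%). The 2 were Il18r1 at -0.40 ± 0.16 and Il23r at -0.18 ± 0.07, each with a limma adjusted p of 0.861. Both DKO libraries of either gene lay below both WT libraries. Groups did not overlap in 3 of the 10, against 34.1% of all genes. The authors' deposited table calls 0 of the 10 in RelB-KO, against 0.119% of its genes, and 0 of the 10 in DKO, against 1.23%. Between DKO and RelB-KO 0 of 10 were called, against 0.00725% of all genes (0.0145% with the block), where Nfkb2 was the only gene called without the block. Of the 10 receptor genes, 0 had an unadjusted p under 0.05 by limma, against 2.88% of all genes tested (with the block 1, against 8.81%). DKO and RelB-KO libraries did not overlap in 4 of the 10, against 27.5% of all genes.

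Whether removal of RelB acts differently with and without Nfkb2 was tested as an interaction, the difference of DKO minus Nfkb2-KO less that of RelB-KO minus WT. No receptor gene was called without the block (0 of 10, against 0.00725% of all genes). An unadjusted p under 0.05 was reached there by 4 of 10, against 4.45% of all genes tested. With the block 2 of 10 were called, against 0.471%, and without WT replicate 1 only Il6ra was, against 0.268%. For Il6ra the interaction was 1.04 ± 0.15 (adjusted p = 0.285, with the block 0.0226, and 0.0411 with the block and without WT replicate 1). For Il23r it was -0.62 ± 0.10 (adjusted p = 0.329, with the block 0.0491, and 0.148 with the block and without WT replicate 1).

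Of the chains that pair with these receptors, Il2rg and Il13ra1 stood out in Nfkb2-KO. Among 20 tested chains of other type I receptors, limma called 0 between Nfkb2-KO and WT (4 at an unadjusted p under 0.05), and with the block it called these 2 higher. Il2rg, the common gamma chain used with Il7r, Il21r and Il4ra, was at 13.66 and 13.59 in WT, 14.14 and 13.997 in Nfkb2-KO, and 13.47 and 13.29 in DKO. It was higher in Nfkb2-KO by 0.44 ± 0.10 (adjusted p = 0.213, with the block 0.0243) and fell from there to DKO by 0.69 ± 0.10 (adjusted p = 0.0470). Il13ra1, which pairs with Il4ra to bind IL-13, was at 6.03 and 6.47 in WT, 7.20 and 7.04 in Nfkb2-KO, and 6.07 and 5.77 in DKO. Its difference from WT was 0.87 ± 0.17 (adjusted p = 0.145, with the block 0.0236), and from Nfkb2-KO to DKO it fell by 1.21 ± 0.17 (adjusted p = 0.0402). Neither was called against WT with the block and without WT replicate 1 (adjusted p = 0.0908 and 0.0648). In both genes the Nfkb2-KO libraries lay above all the others, and in that respect they matched Il7r and Il21r and not Il4ra.

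Of 7 further IL-1 receptor family chains, limma called 0 between Nfkb2-KO and WT (2 at an unadjusted p under 0.05) and 2 higher with the block. They were Il1r1, the signalling IL-1 receptor, at 0.30 ± 0.07 (with the block 0.0487), and Il1r2, the IL-1 decoy receptor, at 0.67 ± 0.18 (with the block 0.0414). With the block and without WT replicate 1 neither was called (adjusted p = 0.158 and 0.156). Of 8 tested type II chains, which bind interferons and IL-10, limma called 0 with or without the block in any comparison. The only 1 at an unadjusted p under 0.05 between Nfkb2-KO and WT was Ifnar1, an interferon receptor chain (-0.35, adjusted p = 0.395).

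Few genes of the signalling machinery behind the receptors were called between Nfkb2-KO and WT, where 0.341% of all genes tested were called (2.91% with the block). Between Nfkb2-KO and WT limma called 0 of 4 JAK kinases, 0 of 14 inhibitors of cytokine signalling and 0 of 6 IL-18 signalling adaptors, with or without the block. At an unadjusted p under 0.05 there were 0, 2 and 1 of these. Of 7 STAT factors Stat5a, which acts below IL-2 and IL-7, was the only 1 called with the block, at 0.50 ± 0.11 (adjusted p = 0.213, with the block 0.0276, and 0.101 with the block and without WT replicate 1). Stat3, which acts below IL-6, IL-21 and IL-23, differed by 0.21 (adjusted p = 0.755), and its inhibitor Socs3 was not called. Against RelB-KO with the block, Jak3, the kinase of the gamma chain, was called higher in Nfkb2-KO and the adaptor Irak2 lower.

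Among 15 tested ligands of these receptors only Il21 was called between Nfkb2-KO and WT, against 0.341% of all genes tested. Il21, made by T cells and bound by Il21r, was at 5.28 and 5.27 in WT, 5.11 and 5.28 in RelB-KO, 6.41 and 6.27 in Nfkb2-KO, and 5.41 and 5.72 in DKO. The Nfkb2-KO libraries lay well above the others, and Il21 rose from WT by 1.07 ± 0.12 (adjusted p = 0.0435, with the block 0.00198), a call that ended without WT replicate 1, when 0 genes of the whole table were called, but not with the block and without that library (0.00976). Ebi3, a subunit of IL-27, was higher in DKO than in Nfkb2-KO by 0.65 ± 0.12 with the block only (0.00672). Il6 was low, at 3.27 and 3.23 in WT and 3.45 and 3.39 in Nfkb2-KO, and was not called.

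**Figure D4:**
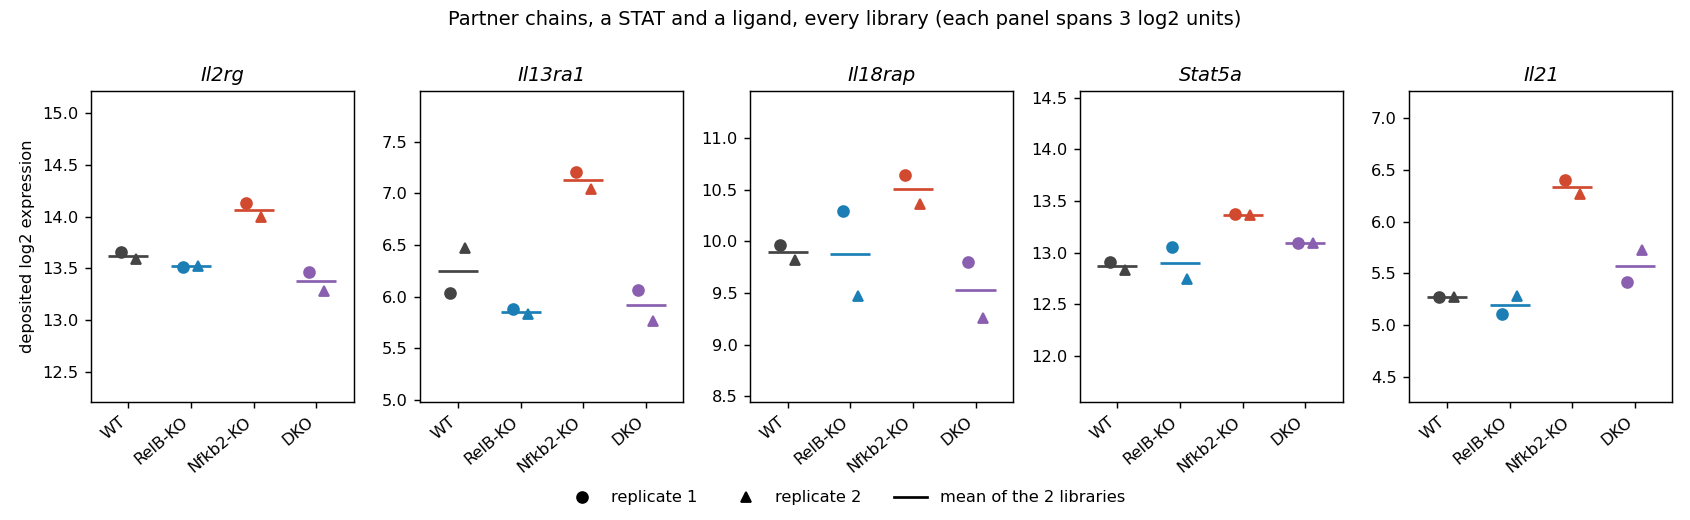
Deposited log2 expression (vertical axis) of the partner chains Il2rg, Il13ra1 and Il18rap, the factor Stat5a and the ligand Il21 in each library, with circles for replicate 1, triangles for replicate 2 and a line at the mean. Each panel spans 3 log2 units, and in all 5 panels both Nfkb2-KO libraries lie above the other 6.

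Between Nfkb2-KO and WT, Irf4 and Bcl6, transcription factors of activated T cells, were called with the block only. Of the 10 lineage factors tested, limma called 0 against WT without the block (2 at an unadjusted p under 0.05). Irf4, an activation-induced factor, was at 13.40 and 13.06 in WT, 13.11 and 13.16 in RelB-KO, 13.76 and 13.82 in Nfkb2-KO, and 13.44 and 13.56 in DKO. Its Nfkb2-KO libraries were the highest, by 0.56 ± 0.13 over WT (adjusted p = 0.210, with the block 0.0364, and 0.00951 with the block and without WT replicate 1). Bcl6, the follicular helper factor, was at 8.74 and 8.79 in WT, 8.57 and 8.35 in RelB-KO, 8.15 and 7.65 in Nfkb2-KO, and 8.55 and 8.16 in DKO. Its Nfkb2-KO libraries were the lowest, by -0.86 ± 0.20 from WT (adjusted p = 0.213, with the block 0.00905, and 0.00828 with the block and without WT replicate 1). From Nfkb2-KO to DKO, Maf and Prdm1 were called higher with the block.

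Among 9 effector cytokines, Il21 was called between Nfkb2-KO and WT, and Il17a, the Th17 cytokine, was called with the block only (0.47 ± 0.09, adjusted p = 0.145, with the block 0.0318, and 0.0729 with the block and without WT replicate 1). Il17a was at 5.85 and 5.73 in WT and 6.34 and 6.18 in Nfkb2-KO. Of 12 regulators of resting T cells, limma called 0 without the block (4 at an unadjusted p under 0.05), and Satb1 and Foxp1, chromatin and transcriptional regulators, were called lower with it (-1.28 ± 0.22 and -0.64 ± 0.17). With the block and without WT replicate 1, Satb1 was called (adjusted p = 0.00930) and Foxp1 was not (0.170). Satb1 rose from Nfkb2-KO to DKO by 1.66 ± 0.22 (adjusted p = 0.0322), in the direction of Il6ra and Il6st.

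Some markers of other cell types moved with these genes. Zbtb46, a dendritic cell factor, was at 8.49 and 8.07 in WT, 9.12 and 9.01 in Nfkb2-KO, and 8.04 and 7.65 in DKO, and was called higher with the block in Nfkb2-KO (0.0239), though not with the block and without WT replicate 1 (0.0870). It was the only 1 of 8 tested myeloid and dendritic markers called there, against 2.91% of all genes called with the block. The log2 sum of that list, which includes Zbtb46, ran from 10.50 to 10.70 in Nfkb2-KO, against 10.29 to 10.45 in WT. The median difference of the 8 markers from WT was 0.011, with 5 of them positive, so the list as a whole was nearly level. Of 5 tested B cell markers, Blk was called higher with the block, by 0.21 ± 0.03 (0.0244, and 0.105 with the block and without WT replicate 1), and was called lower in DKO than in Nfkb2-KO without it (-0.27 ± 0.03, adjusted p = 0.0298). Blk did not stand for its list: between Nfkb2-KO and WT only 2 of the 5 B cell markers had a positive difference, and the median of the 5 was -0.0041. With the block and without WT replicate 1, 0 of the 5 were called higher in Nfkb2-KO than in WT and 1 was called lower. Of the 6 tested CD8 T and NK cell markers, limma called 0 with or without the block, with 0 at an unadjusted p under 0.05. The part of such cells in the values of the receptor genes was not tested.

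The genes whose pattern was most like that of Il6ra were found among 779 tested genes whose genotype means spanned at least 0.5 log2 units. Likeness was Pearson's r with Il6ra over the 8 libraries after the mean of each replicate number was taken off. The libraries share processing and the Nfkb2-KO difference sets most of the spread, so these values are descriptions. The highest were Cnksr3 at 0.987, Gbp2, an interferon-induced GTPase, at 0.986, Rcan3, a calcineurin regulator, at 0.986, Dusp10, a MAP kinase phosphatase, at 0.984, and Arl5c at 0.976. The mean of Gbp2 was 13.12 in WT, 13.13 in RelB-KO, 11.85 in Nfkb2-KO and 13.04 in DKO. The most opposite were Tctex1d2 at -0.994, Tnip2, a regulator of NF-kB signalling, at -0.993, and Igfbp7 at -0.993. Among the receptor genes themselves r was 0.956 between Il6ra and Il6st, -0.980 between Il6st and Il23r and 0.966 between Il21r and Il23r.

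Of the genes next to the receptor genes, some differed in the same direction and others did not. The neighbours of Il6ra, She and Atp8b2, differed between Nfkb2-KO and WT by -0.04 and -0.25 and were not called. Il12rb2 and Il23r are 46744 bases apart on the same strand and differed by -0.17 and 0.51. Ankrd55, 80068 bases from Il6st, was lower in Nfkb2-KO by -0.51 and was called with the block only (0.0395), as Il6st was. Capsl, 39750 bases from Il7r, was higher by 0.39 with the block only (0.0309). Neither was called with the block and without WT replicate 1 (0.0870 for Ankrd55 and 0.104 for Capsl). Il31ra, a type I receptor gene 9812 bases from Il6st, was near the lower limit of the table with a mean of 1.1 and was not called.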

How the data were processed

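The authors deposited 1 table of log2 expression values per gene and library, headed log2 RPKM and batch corrected per the file headers. Un-logged values summed to 18.2 to 19.7 M per library, and to 110.2 to 114.1 M when multiplied by exonic length in kb, so they were treated as log2 expression relative to library size and not per length. Read counts were not analysed, and the depth behind a value is unknown. STAR, DESeq2 1.10.1 and mm10 are named without a role per the submitters' processing notes, and the batch method, counting, annotation and strand are not given in the sources used here. For each knockout against WT the table also holds p-values and log2 fold changes of the authors, quoted only as theirs.

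The table held 22432 genes, of which 6247 were at 0 in all libraries, 1 had a blank cell and 25 had symbols turned into dates. The 13797 genes whose un-logged values averaged 1 or more were tested. With limma 3.58.1 in R 4.3.3, 1 linear model of genotype covered all 8 libraries (empirical Bayes with a variance trend, 2-sided, 4 residual degrees of freedom), and p-values were adjusted by Benjamini-Hochberg over all genes tested in each of 7 comparisons. The fitting code was tested on simulated data. Differences between replicates 1 and 2 correlated across genes between genotypes (Pearson r from 0.81 to 0.89 in 6 pairs), so the numbers were taken to pair the libraries, and a fit with the replicate number as a block (3 residual degrees of freedom) is quoted where it changes a call. The pairing comes from the data, since the labels give only the numbers. Other settings tried were the block, a pseudocount of 1, no filter, a filter at 32, quantile and median scaling, no variance trend, only the genotypes compared, and each library left out in turn. The block with the first WT library left out was added after seeing the data.

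The receptor genes and gene lists were chosen with earlier results of these data known. Named genes were all 10 receptor genes, the targeted genes, list members called or lowest in p, the 5 genes most like and 3 least like Il6ra, and the nearest tested neighbours. Positions are from GENCODE on mm10. Some items of the lists are not reported here.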

Additional observations from a re-analysis of the deposited data

Results flagged for a closer look

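The effect of removing RelB differed between cells with and without the Nfkb2 deletion for Il6ra and Il23r, by a limma interaction test with the replicate block. For Il6ra, removal of RelB changed the log2 level by 0.05 ± 0.11 without the Nfkb2 deletion and by 1.09 ± 0.11 with it. The difference was 1.04 ± 0.15 (adjusted p = 0.0226 with the block, 0.285 without). Within replicate 1 the effects were -0.11 and 1.18, and within replicate 2 they were 0.21 and 1.00. For Il23r the effects were -0.08 ± 0.07 and -0.69 ± 0.07, a difference of -0.62 ± 0.10 (adjusted p = 0.0491 with the block, 0.329 without). Its call ended with the block when WT replicate 1, the library that stood apart in Xist and Ddx3y, was left out (adjusted p = 0.148), and that of Il6ra did not (0.0411). The Nfkb2 transcript was itself higher in DKO than in Nfkb2-KO by 0.80 ± 0.20, so these 2 genotypes did not differ in Relb alone.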

How the results depend on the processing

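With the replicate block the number of receptor genes called rose from 1 to 5 for Nfkb2-KO against WT, from 3 to 6 for DKO against Nfkb2-KO, from 3 to 7 for Nfkb2-KO against RelB-KO and from 0 to 2 for the interaction. With the block and the first WT library left out the counts were 1, 6, 7 and 1. When only the genotypes compared were fitted, which leaves fewer samples to estimate the spread, the counts were 0, 0 and 1 for the first 3, and the interaction, which uses all 4 genotypes, had no such fit. Leaving out 1 library at a time gave 0 to 1, 0 to 2 and 0 to 1 for the first 3, where a genotype left with 1 library is assumed to vary like the others. RelB-KO against WT, DKO against WT and DKO against RelB-KO gave 0 calls under every setting, with 0, 2 and 0 of the 10 genes at an unadjusted limma p under 0.05. Directions reversed only in genes that were not called, when 1 library was left out: Il27ra ran from -0.054 to 0.25 against WT and from -0.23 to 0.065 for DKO against Nfkb2-KO, Il4ra from -0.036 to 0.17 for DKO against Nfkb2-KO, and Il12rb1 from -0.44 to 0.073 and Il12rb2 from -0.34 to 0.20 for Nfkb2-KO against RelB-KO. Over the 10 genes in the 3 comparisons with Nfkb2-KO, 435 alternative values kept their direction and side of the threshold, 18 passed it newly, 50 no longer passed it and 7 reversed. The cause was not tested beyond the number of samples.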
